A study of Mus musculus with 8 samples.

Results

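Wnt ligands, the proteins that load and carry them to the cell surface, and receptors of the branches that do not use β-catenin were followed here in descendants of hypertrophic chondrocytes, the swollen cartilage cells of the growth plate next to the marrow. The set was given by gene symbol and held 10 genes, the ligands Wnt4, Wnt5a, Wnt5b, Wnt10b, Wnt11 and Wnt16, the secretion genes Porcn and Wls, and the receptor genes Ror2 and Ryk, of 48490 genes in the table. All 10 were found, and 9 passed the filter on low values (at least 1 FPKM, fragments scaled by transcript length and library total, in at least 2 of 8 libraries), as 12888 genes did. Wnt16 did not. The set was not chosen by measured values, although it was chosen with earlier results of these data known.

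Wnt proteins are lipid-modified in the endoplasmic reticulum by the acyltransferase Porcupine (Porcn), bound by the transmembrane carrier Wntless (Wls) and escorted to the cell surface. Ligands of the Wnt10 subfamily mostly act through Frizzled and LRP receptors to stabilise β-catenin, whereas Wnt5a, Wnt5b and Wnt11 are best known for signalling without it, through receptors such as the tyrosine kinase-like proteins Ror2 and Ryk. In the growth plate, Wnt5a and Wnt5b are known regulators of chondrocyte proliferation and hypertrophy, and Wnt4 is expressed by chondrocytes on their way to hypertrophy.

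Mice of 3 genotypes were compared at postnatal day 5, all carrying Col10a1Cre and the Rosa26-Tdtomato reporter, so that the Cre recombinase of hypertrophic chondrocytes also switched on the red label. GoF (gain of function) mice were Ctnnb1-exon3 Δ/+, with β-catenin stabilised from 1 allele (2 libraries). LoF (loss of function) mice were Ctnnb1Δ/Δ, with the β-catenin gene deleted on both alleles (4 libraries), and WT (wildtype control) mice had Col10a1Cre and Rosa26-Tdtomato with no change in Ctnnb1 named (2 libraries). Each library was made by Smart-seq2 from 70 labelled cells of the proximal tibia, picked by hand and pooled. Whether replicate libraries stand for different animals is not stated in the labels, and the p-values reflect library-to-library spread, part of which may be technical.

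Read totals are unknown, and relative depth read from the steps between low values spanned 1.29-fold. Only ratios near equal depth with WT library 2 were searched, so a wide difference in depth could not have been seen. In LoF library 3 the commonest ratio was shared by 56 of 2156 genes. Ctnnb1 itself was at 72.0 and 86.7 FPKM in GoF, 67.3 to 81.1 in LoF, and 137 and 146 in WT, which does not show which exons were read. Axin2, the feedback gene of the β-catenin branch, was at 5.26 and 2.80 FPKM in GoF, at 0 throughout LoF, and at 0 and 0.323 in WT. Col10a1, the gene that drives the Cre, was at 190 and 177 FPKM in GoF, 9.61 to 114 in LoF, and 6.24 and 20.5 in WT. The summed level of 10 osteoblast markers was 21548 to 21914 FPKM in GoF, 1165 to 2867 in LoF and 15330 to 16221 in WT, and that of 10 adipocyte and marrow stromal markers was 44.0 to 61.8, 1069 to 2627 and 105 to 422 FPKM in the same order, with Adipoq, Cd36 and Cebpa at 0 in both GoF libraries. The 10 hypertrophic and growth plate chondrocyte markers summed to 1993 to 2787 FPKM in GoF, 12244 to 16862 in LoF and 5240 to 6618 in WT, sums made up mostly of Spp1 and Mmp13. Spp1 and Mmp13 were lower in GoF than in LoF and Ihh, Mef2c and Panx3 higher, and the median log2 fold change of the 10 was 0.67 in GoF against LoF and 1.1 in GoF against WT. Y-linked transcripts without Xist were found in GoF (both) and in LoF 2 and LoF 3, and Xist without Y-linked transcripts in LoF 1, LoF 4 and both WT libraries. Sex and genotype therefore cannot be told apart in GoF against WT from these groups alone.

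Set side by side per length, Wls was the highest of the 10 genes in every library, at 51.6 to 186 FPKM. In WT it averaged 138 ± 6.34 FPKM (SD, n = 2), ahead of Ryk at 14.8 ± 2.92, Porcn at 9.48 ± 0.0715, Wnt5a at 4.16 ± 1.31, Wnt4 at 3.88 ± 0.935 and Wnt5b at 2.96 ± 1.09 FPKM. The libraries of these last 3 ligands overlapped, so their order in WT is not settled, while Ryk, Porcn and Wnt5a did not overlap as neighbours. Ror2 at 1.08 ± 0.352, Wnt10b at 0.649 ± 0.917 and Wnt11 at 0.447 ± 0.0991 FPKM followed, and Wnt16 was listed at 0. In GoF, Wnt11 averaged 13.7 ± 3.93 FPKM, second to Wls, and overlapped Ryk at 9.68 ± 2.05 (SD, n = 2). In LoF, Porcn at 21.2 ± 7.17 and Ryk at 16.2 ± 5.04 FPKM (SD, n = 4) overlapped, and Wnt4 and Wnt5b were the leading ligands. The plot of FPKM by library shows 6 patterns in which GoF lay apart from all 6 other libraries.

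**Figure D1:**
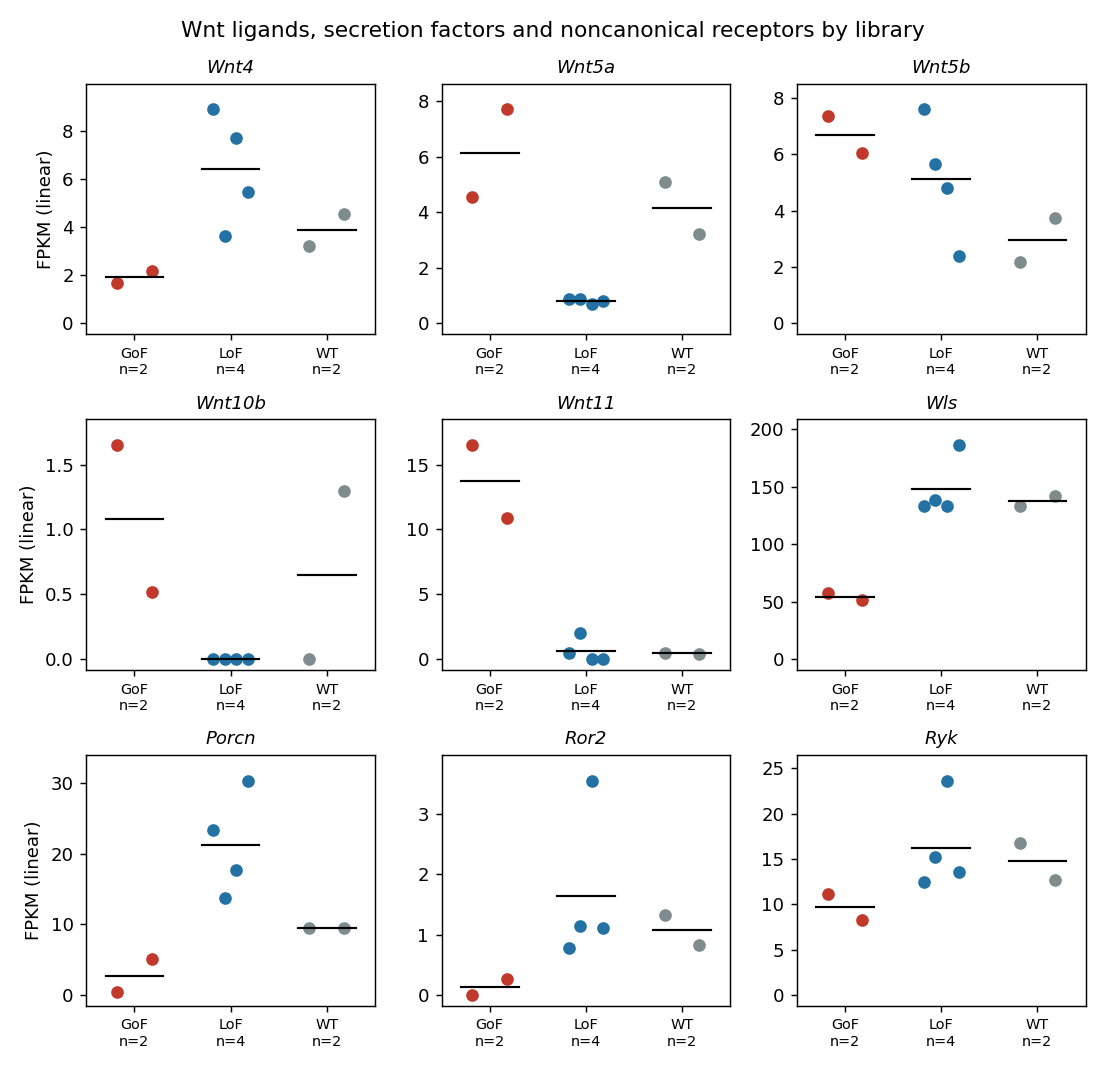
FPKM on a linear axis in each library for the 9 tested genes, with GoF on the left, LoF in the middle and WT on the right. Points are libraries and short lines are group means. Wnt11 lies at 16.5 and 10.9 FPKM in GoF and at most at 2.01 in the other libraries, while Wls, Porcn, Wnt4, Ror2 and Ryk lie lower in both GoF libraries than in every LoF and WT library.

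Both GoF libraries lay below all 6 other libraries in 5 of the 9 tested genes (Wls, Porcn, Wnt4, Ror2 and Ryk) and above them in 1 (Wnt11). Among all 12888 genes tested, 11.8% lay below and 10.4% above in this way. Differences were tested with limma on log2(FPKM + 1) in 1 fit over the 3 groups, with Benjamini-Hochberg adjustment over all genes tested and a call at an adjusted p under 0.05. In GoF against WT, 1 of 9 genes rose (Wnt11), 1 fell (Wls) and 7 did not pass, against a background of 2.31% of all genes called (1.41% higher and 0.9% lower). In GoF against LoF, 2 were higher (Wnt11 and Wnt5a), 2 lower (Wls and Porcn) and 5 did not pass, against a background of 11.6% (5.97% higher and 5.68% lower). In LoF against WT, 0 of 9 passed in limma, against a background of 1.23% (0.566% higher and 0.667% lower). At an unadjusted p under 0.05 there was 1 of 9 in that comparison (Wnt5a), where 13.4% of all genes were. Libraries of the groups did not overlap for 2 higher and 5 lower genes in GoF against WT, where 21.8% of all genes lay higher and 26.1% lower in this way (48.0% in either direction). In GoF against LoF this held for 3 higher and 5 lower genes (14.8% and 18.7% of all genes, 33.5% in either direction), and in LoF against WT for 1 higher and 1 lower (11.5% and 9.88%, 21.4% in either direction). The median log2 fold change of the 9 genes was -0.56 in GoF against WT, -0.66 in GoF against LoF and 0.10 in LoF against WT, beside -0.08, -0.17 and 0.06 over all genes tested. GoF libraries enter the first and second of these comparisons, so the values are given side by side and not as independent support. Since these are pools of cells, fewer cells of a type and less RNA per cell cannot be told apart in any of these values.

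**Figure D2:**
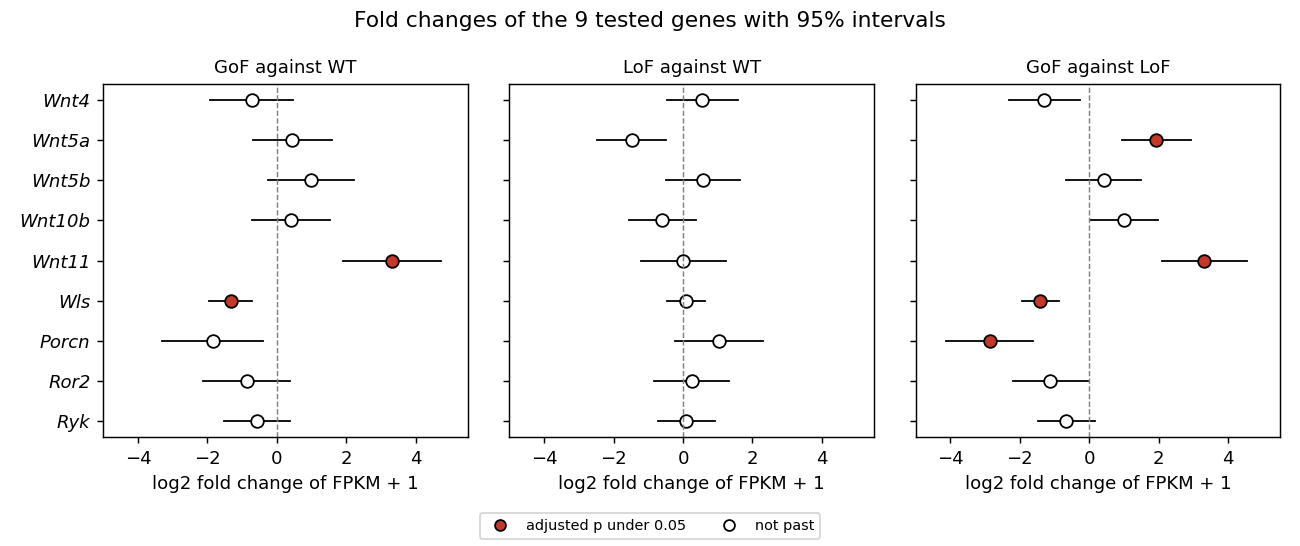
Log2 fold changes on the log2(FPKM + 1) scale for the 9 tested genes in GoF against WT (left), LoF against WT (middle) and GoF against LoF (right). Lines are 95% intervals from the limma fit, not adjusted for the number of genes, and filled points passed at an adjusted p under 0.05. Wnt11 and Wls are filled in both GoF comparisons, Wnt5a and Porcn in GoF against LoF, and no gene in LoF against WT.

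Wnt11 (ENSMUSG00000015957.12, chromosome 7, 98835112 to 98855195, mm10), a ligand best known for signalling without β-catenin, was the ligand with the widest difference. It was at 16.5 and 10.9 FPKM in GoF, at 0.479, 2.01, 0 and 0 in the 4 LoF libraries, and at 0.517 and 0.376 in WT. Both GoF libraries lay above all others, and the LoF and WT libraries overlapped. Outside GoF only LoF library 2 reached 1 FPKM, so Wnt11 passed the filter through its GoF values. The counts of called genes that hold Wnt11 carry that limit. The ratio of means was 30.7 in GoF against WT (log2 fold change 3.32, SE 0.64, limma adjusted p = 0.0262), and the log2 fold change in GoF against LoF was 3.31 (SE 0.55, limma adjusted p = 0.00425). Between LoF and WT it was 0.01, with a 95% interval of -1.22 to 1.23. The call against WT ended without GoF library 1 or 2 or WT library 1 or 2 (limma adjusted p = 0.222, 0.101, 0.173 and 0.141) and with sex as a covariate (limma adjusted p = 0.295). It also ended with a pseudocount of 0.1 or no filter on low values (limma adjusted p = 0.194 and 0.0628). With the replicate number as a block, the Wnt11 calls against WT and against LoF both ended (limma adjusted p = 0.0868 and 0.055). That against LoF ended without GoF library 1 (limma adjusted p = 0.06) and among the libraries without Xist (limma adjusted p = 0.0631).

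The bases before the Wnt11 and Wls start sites are shown because these genes passed in opposite directions in GoF. They are the 250 bases before a RefSeq start on build GRCm38.p6 (for Wnt11 the first of 2 listed), plus strand, at chr7:98834862-98835111 for Wnt11 and chr3:159839400-159839649 for Wls, with matches on either strand in capitals. The TCF/LEF-type motifs searched were CTTTGAA as the first, CTTTGAT as another, then the form CTTTGTA and lastly the form CTTTGTT, which do not overlap the TATA box letters TATAAA.
Wnt11: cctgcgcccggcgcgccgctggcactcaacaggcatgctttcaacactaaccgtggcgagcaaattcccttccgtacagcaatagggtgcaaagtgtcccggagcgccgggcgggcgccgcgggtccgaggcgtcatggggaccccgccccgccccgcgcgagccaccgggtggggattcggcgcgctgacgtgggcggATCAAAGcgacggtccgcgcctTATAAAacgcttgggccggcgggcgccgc
Wls: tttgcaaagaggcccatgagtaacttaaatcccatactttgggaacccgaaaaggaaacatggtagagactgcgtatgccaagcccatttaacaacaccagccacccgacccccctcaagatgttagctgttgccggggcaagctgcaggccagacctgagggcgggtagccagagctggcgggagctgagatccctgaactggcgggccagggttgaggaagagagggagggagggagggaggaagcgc
The Wnt11 window held ATCAAAG, which is how CTTTGAT on the opposite strand reads, starting 51 bases before the start site, and TATAAA starting 29 bases before it, while the Wls window held neither, nor did the window of the second listed Wnt11 start. Of 32851 RefSeq windows of 300 bases (250 before and 50 after the start), 16.9% held at least 1 of the 4 TCF/LEF-type motifs and 13.6% held TATAAA. Within the 250 bases before the start, as printed here, the shares were 14.8% and 12.4%. Windows were found for 8 of the 10 genes, 11 windows in all, of which 2 held a TCF/LEF-type motif, the other at the third listed start of Wnt5b. A match is a run of letters and does not show that a factor binds there.

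The other ligands differed less, and by group. Wnt5a (ENSMUSG00000021994.14, chromosome 14, 28504750 to 28527447), the prototype of β-catenin-independent Wnts, was at 4.53 and 7.70 FPKM in GoF, at 0.871, 0.876, 0.704 and 0.822 in LoF, and at 5.09 and 3.23 in WT. All LoF libraries sat below every GoF and WT library, with GoF and WT overlapping. Wnt5a was 7.48-fold higher in GoF than in LoF (log2 fold change 1.93, SE 0.45, limma adjusted p = 0.0206). In LoF against WT the ratio of means was 0.197, but the difference did not pass (log2 fold change -1.48, SE 0.45, limma adjusted p = 0.163). The call against LoF ended without GoF library 1 or 2 (limma adjusted p = 0.0966 and 0.222) with sex as a covariate (limma adjusted p = 0.058) and among the libraries without Xist (limma adjusted p = 0.0942). The replicate number as a block ended that call too (limma adjusted p = 0.1). The osteoblast marker sums above run in the same order, low in LoF, and their part in the Wnt5a difference was not tested.

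Wnt4 (ENSMUSG00000036856.4, chromosome 4, 137277489 to 137299726) was at 1.70 and 2.18 FPKM in GoF, at 8.92, 3.65, 7.74 and 5.47 in LoF, and at 3.22 and 4.54 in WT. GoF lay below all other libraries, without passing in GoF against LoF (log2 fold change -1.29, SE 0.46, limma adjusted p = 0.112) or in GoF against WT (log2 fold change -0.72, limma adjusted p = 0.616). Wnt5b (ENSMUSG00000030170.14, chromosome 6, 119432531 to 119544347), the closest relative of Wnt5a, was at 7.35 and 6.04 FPKM in GoF, at 7.59, 5.65, 4.79 and 2.39 in LoF, and at 2.19 and 3.73 in WT. Both GoF libraries of Wnt5b lay above WT, while LoF overlapped both groups. Its 95% interval in LoF against WT was -0.50 to 1.65 on the log2 scale, against -2.47 to -0.49 for Wnt5a. The difference between these intervals was not tested. Wnt5b passed in no comparison (limma adjusted p = 0.486, 0.662 and 0.65 in GoF against WT, LoF against WT and GoF against LoF).

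Wnt10b (ENSMUSG00000022996.14, chromosome 15, 98771753 to 98778150), known in mice for promoting bone formation and restraining fat cell formation, was at 1.65 and 0.517 FPKM in GoF, listed at 0 in each LoF library, and at 0 and 1.30 in WT. It was near the filter and did not pass in GoF against LoF (log2 fold change 1.00, SE 0.44, limma adjusted p = 0.184). Wnt16 (ENSMUSG00000029671.15, chromosome 6, 22288227 to 22298522), a ligand of cortical bone, was listed at 0 in both GoF libraries, in 3 of 4 LoF libraries and in both WT libraries, and at 0.357 FPKM in LoF library 1. Without read counts, no limit can be set on these values at 0.

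Of all 19 Wnt ligand genes, 10 were above 0 in at least 1 library and 9 were at 0 throughout (Wnt1, Wnt2, Wnt3, Wnt3a, Wnt7a, Wnt8a, Wnt8b, Wnt9a and Wnt9b). Wnt10a, the close relative of Wnt10b, was at 4.10 and 0.690 FPKM in GoF and listed at 0 in every LoF and WT library, and Wnt6 was at 2.09 and 0 in GoF and at 0 elsewhere. Neither reached the filter. Wnt7b, at 0 and 2.44 FPKM in GoF, 0 to 0.887 in LoF, and 1.11 and 0.371 in WT, was tested and did not pass, and Wnt2b was at 0 in both GoF libraries, at 0 to 1.30 in LoF, and at 0.377 and 0 in WT. The summed FPKM of the 19 genes was 34.2 ± 5.25 (SD, n = 2) in GoF, 13.8 ± 3.63 (SD, n = 4) in LoF and 13.0 ± 0.736 (SD, n = 2) in WT. Wnt11 made up 43.5% and 35.9% of that sum in GoF, 0% to 14.9% in LoF, and 4.13% and 2.78% in WT. Wnt5a made up 11.9% and 25.3% in GoF, 4.69% to 8.43% in LoF, and 40.7% and 23.9% in WT. Wnt4 and Wnt5b were the 2 highest ligands in each LoF library, where Wnt4 alone was 27.1% to 58.5% of the sum, against 4.50% and 7.14% in GoF and 25.7% and 33.5% in WT. These sums are descriptions and were not tested, and FPKM sums say nothing of protein.

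**Figure D3:**
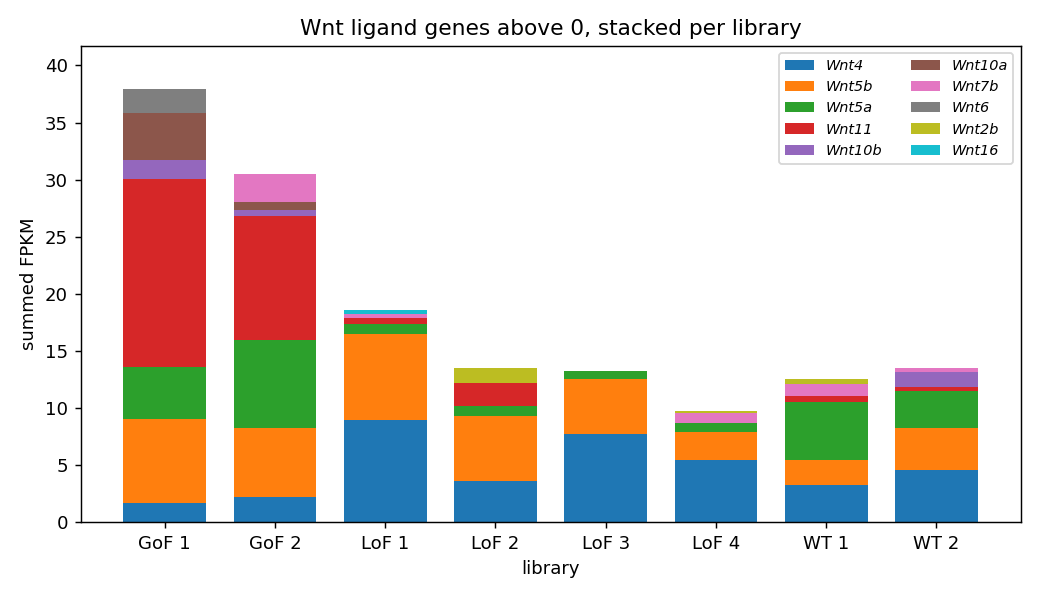
Stacked bars of FPKM for the 10 Wnt ligand genes above 0 in at least 1 library, 1 bar per library, GoF on the left and WT on the right, with colours for genes. The GoF bars reach 37.9 and 30.5 FPKM with Wnt11 as the largest block, LoF bars reach 9.75 to 18.6 with mostly Wnt4 and Wnt5b, and WT bars reach 12.5 and 13.6 with Wnt5a, Wnt4 and Wnt5b.

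Of the pair of secretion genes, Wls was lower in GoF than in either other group, and Porcn was lower in GoF than in LoF. Wls (ENSMUSG00000028173.10, chromosome 3, 159839672 to 159938664), the dedicated carrier of lipid-modified Wnts, was at 57.4 and 51.6 FPKM in GoF, at 133, 138, 133 and 186 in LoF, and at 133 and 142 in WT. LoF and WT overlapped, and both GoF libraries lay below them. The mean was 54.5 ± 4.13 FPKM (SD, n = 2) in GoF, 148 ± 25.9 (SD, n = 4) in LoF and 138 ± 6.34 (SD, n = 2) in WT. Wls fell in GoF against WT (ratio of means 0.396, log2 fold change -1.32, SE 0.28, limma adjusted p = 0.0401) and was lower than in LoF (ratio 0.37, log2 fold change -1.41, SE 0.24, limma adjusted p = 0.00515). In LoF against WT its log2 fold change was 0.08, with a 95% interval of -0.46 to 0.63. With the replicate number as a block, the Wls call in GoF against WT ended (limma adjusted p = 0.0772). The call against WT ended without LoF library 2, GoF library 1 or 2, or WT library 1 or 2 (limma adjusted p = 0.0649, 0.227, 0.238, 0.201 and 0.203) with sex as a covariate (limma adjusted p = 0.358) and without the mean-variance trend (limma adjusted p = 0.148). That against LoF ended without GoF library 2 (limma adjusted p = 0.0642) and among the libraries without Xist (limma adjusted p = 0.0506).

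Porcn (ENSMUSG00000031169.13, chromosome X, 8193848 to 8206525), the acyltransferase gene, was at 0.404 and 5.06 FPKM in GoF, at 23.3, 13.7, 17.7 and 30.3 in LoF, and at 9.53 and 9.43 in WT. The 3 groups did not overlap, with LoF highest and GoF lowest. Porcn was lower in GoF than in LoF (ratio of means 0.129, log2 fold change -2.87, SE 0.57, limma adjusted p = 0.00972), while GoF against WT (log2 fold change -1.84, SE 0.65, limma adjusted p = 0.217) and LoF against WT (log2 fold change 1.03, SE 0.57, limma adjusted p = 0.488) did not pass. The GoF libraries differed widely from each other, and the call ended without GoF library 1 (log2 fold change -1.82, limma adjusted p = 0.113). Porcn lies on the X chromosome, and within LoF the libraries with Xist stood at 23.3 and 30.3 FPKM, above those with Y-linked transcripts at 13.7 and 17.7. Among libraries with Y-linked transcripts alone, GoF at 0.404 and 5.06 FPKM lay below LoF at 13.7 and 17.7, with a log2 fold change that did not pass there (limma adjusted p = 0.116). With sex as a covariate, the limma adjusted p in GoF against LoF was 0.0542, and with the replicate number as a block it was 0.0971.

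The receptor genes did not pass. Ryk (ENSMUSG00000032547.12, chromosome 9, 102834917 to 102908305), an atypical Wnt receptor, was at 11.1 and 8.23 FPKM in GoF, at 12.5, 15.2, 23.6 and 13.6 in LoF, and at 16.8 and 12.7 in WT. Ror2 (ENSMUSG00000021464.14, chromosome 13, 53109312 to 53286124), the main receptor of Wnt5a in limb and skeletal tissue, was at 0 and 0.271 FPKM in GoF, at 0.778, 1.14, 3.54 and 1.11 in LoF, and at 1.33 and 0.831 in WT. For both, the GoF libraries were the lowest of the 8. In GoF against LoF the log2 fold change was -0.66 (95% interval -1.48 to 0.16, limma adjusted p = 0.306) for Ryk and -1.13 (95% interval -2.21 to -0.04, limma adjusted p = 0.18) for Ror2. In GoF against WT the intervals were -1.51 to 0.38 for Ryk and -2.12 to 0.38 for Ror2. LoF library 3 held the highest Ryk and Ror2 values, and it also held the highest sum of 8 endothelial markers, at 97.1 FPKM against 0.564 to 13.7 in the other LoF libraries. The part of these markers in the receptor values was not tested.

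Markers of other cell types also differed between the groups. The adipocyte and marrow stromal marker sums given above were lowest in GoF, where 8 of 10 of these genes were lower than in LoF (5.68% of all genes were). Lepr, a receptor gene that marks marrow stromal cells, lay the other way, at 38.1 and 56.9 FPKM in GoF, 2.15 to 32.6 in LoF, and 51.3 and 27.0 in WT, and did not pass (log2 fold change 1.98 in GoF against LoF, limma adjusted p = 0.133). The summed level of 8 pericyte and smooth muscle markers was 4.13 to 5.08 FPKM in GoF, 37.5 to 71.4 in LoF and 23.6 to 36.0 in WT, with Myh11 at 0 in every library. The part of these markers in the Wls and Porcn differences was not tested. Of 8 myeloid and osteoclast markers, Itgam and Calcr were at 0 in every library, and the summed level was 25.5 to 34.3 FPKM in GoF, 10.9 to 19.1 in LoF and 10.6 to 12.8 in WT. The 10 erythroid and neutrophil markers summed to 895 to 1839 FPKM in GoF, 76.2 to 2355 in LoF and 2803 to 10630 in WT, and 10 periosteum and fibroblast markers to 119 to 142, 95.5 to 186 and 118 to 151 FPKM in the same order.

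Genes with patterns most like the 4 called genes were found by the root mean square difference of log2(FPKM + 1), centred on each gene's own mean, over the 8 libraries. For Wls these were Vasp and Arpc1b, which act on actin filaments, and the cell surface protein gene Mpzl1, at differences of 0.15, 0.17 and 0.18. Vasp was at 2.32 and 2.08 FPKM in GoF, 7.14 to 9.87 in LoF, and 8.31 and 5.90 in WT. For Wnt5a they were Adamts18, a secreted metalloproteinase gene, Sybu and Tmed3 (0.16, 0.22 and 0.25). Tmed3, a member of the p24 cargo receptor family, was at 192 and 241 FPKM in GoF, 57.2 to 68.2 in LoF, and 134 and 121 in WT. For Porcn they were the nuclear pore gene Nup43, Hmgb2 and the collagen VI gene Col6a3 (0.29, 0.34 and 0.34), and for Wnt11 Susd5, Ndufa4l2 and Spint2 (0.38, 0.42 and 0.45). Spint2, a protease inhibitor gene, was at 19.8 and 15.5 FPKM in GoF, 0 to 2.13 in LoF, and 0 in both WT libraries. A small difference over 3 groups of libraries is shared by design among genes that separate the genotypes and says nothing of shared control.

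Other genes of Wnt secretion and β-catenin-independent signalling were taken from 4 lists of 83 genes, of which 57 were tested. In GoF against LoF, 6 were higher, 2 lower and 49 did not pass (14.0% called, against 11.6% of all genes), and their median log2 fold change was 0.06. In GoF against WT and in LoF against WT, 0 of 57 passed in limma, where 2.31% and 1.23% of all genes did. At an unadjusted p under 0.05 there were 11 and 5 of 57, where 14.3% and 13.4% of all genes were. Of 19 tested secretion and release genes, 4 were higher and 1 lower in GoF than in LoF (26.3% called, against 11.6% of all genes). Scd1, whose desaturase product is the lipid attached to Wnts, was at 27.4 and 34.2 FPKM in GoF, 0.603 to 4.98 in LoF, and 5.91 and 5.42 in WT (ratio of means 11.9 in GoF against LoF, log2 fold change 3.29, SE 0.52, limma adjusted p = 0.00347). Scd2, the other desaturase gene listed, was at 16.5 and 25.5 FPKM in GoF, 9.81 to 18.5 in LoF, and 29.4 and 19.8 in WT. It did not pass in GoF against LoF (log2 fold change 0.47, limma adjusted p = 0.475). Of the desaturase genes listed, only Scd1 passed, in the opposite direction to Porcn, whose product adds that lipid to Wnts. Notum, a secreted enzyme that removes it, was at 10.8 and 29.7 FPKM in GoF, 0 to 3.28 in LoF, and 3.01 and 4.40 in WT. Its log2 fold change in GoF against LoF was 3.02 (SE 0.67, limma adjusted p = 0.0176). That call ended without GoF library 2 (log2 fold change 2.33). It also ended with a pseudocount of 0.1 or with the replicate number as a block (limma adjusted p = 0.0814 and 0.0787).

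The cargo receptor genes Tmed2 and Tmed10, of the p24 family that Wnt export needs in Drosophila, were higher in GoF than in LoF. Tmed2 was at 307 and 332 FPKM in GoF, 140 to 219 in LoF, and 273 and 297 in WT (ratio of means 1.84 in GoF against LoF, limma adjusted p = 0.0383). Tmed10 was at 106 and 88.5 FPKM in GoF, 38.9 to 54.0 in LoF, and 59.1 and 61.8 in WT (ratio 2.04, limma adjusted p = 0.0303). Of the other p24 genes listed, Tmed5 lay the other way without passing, at 3.42 and 5.88 FPKM in GoF, 6.83 to 15.6 in LoF, and 12.4 and 3.44 in WT (log2 fold change -1.16 in GoF against LoF, limma adjusted p = 0.202), and Tmed4 did not pass (limma adjusted p = 0.588). Vps29, a subunit of the retromer that recycles Wls from endosomes, was lower, at 23.1 and 28.7 FPKM in GoF, 48.0 to 72.1 in LoF, and 40.7 and 51.0 in WT (ratio 0.456, limma adjusted p = 0.0337). The other tested retromer subunits and Snx3 did not pass, with Vps35 at 19.1 and 22.4 FPKM in GoF and 12.2 to 31.9 in LoF. Vps26b lay opposite to Vps29, at 6.62 and 5.39 FPKM in GoF, 1.36 to 4.01 in LoF, and 3.91 and 1.31 in WT. Its log2 fold change in GoF against LoF was 1.2 (limma adjusted p = 0.18), while GoF and LoF libraries of Vps26a overlapped. The calls of Tmed2, Tmed10 and Vps29 ended in 12, 10 and 11 of 18 alternatives, among them leaving out either GoF library (limma adjusted p = 0.21 and 0.232, 0.314 and 0.13, and 0.313 and 0.125). Leaving out LoF library 2 or either WT library also ended all 3 (limma adjusted p = 0.0519 to 0.0788), as did leaving out LoF library 1 or 3 for Tmed2 (limma adjusted p = 0.0564 and 0.0528) and LoF library 4 for Vps29 (limma adjusted p = 0.0597).

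Of 17 tested coreceptor and planar polarity genes, Celsr1 and Ankrd6 were higher, Mcam was lower and 14 did not pass in GoF against LoF (17.6% called, against 11.6% of all genes). Mcam, whose product is a Wnt5a receptor and also marks pericytes, was listed at 0 in both GoF libraries and at 3.07 to 17.5 FPKM in LoF, and 6.60 and 4.34 in WT (log2 fold change in GoF against LoF -3.16, SE 0.60, limma adjusted p = 0.0076). That call ended without GoF library 1 or 2 (limma adjusted p = 0.0616 and 0.054). Celsr1, an atypical cadherin gene of planar cell polarity, was at 1.64 and 1.39 FPKM in GoF, 0 in all LoF libraries, and 0 and 0.0534 in WT (limma adjusted p = 0.0297). Celsr1 passed the filter only through its GoF values, so it could enter the test only by being high in GoF. The share of these genes called carries that limit. Ankrd6, the mouse Diversin gene, was at 6.56 and 3.65 FPKM in GoF, 0.247 to 1.32 in LoF, and 4.01 and 6.0 in WT (limma adjusted p = 0.0421), an order like that of Wnt5a with LoF alone apart. The call of Celsr1 ended in 9 of 15 alternatives and that of Ankrd6 in 13 of 18, with limma adjusted p up to 0.0907 and 0.379. Celsr1 lost it without LoF library 1, 2 or 4 or either WT library (limma adjusted p = 0.0539, 0.06, 0.0506, 0.0503 and 0.0502). Ankrd6 lost it without LoF library 1 or 2, either GoF library or either WT library (limma adjusted p = 0.0781, 0.0843, 0.379, 0.124, 0.0603 and 0.0598). Of 20 tested effector genes of these branches, among them Rhoa, Rac1, Mapk8 and the Camk2 and Nfat genes, 0 passed in limma in GoF against LoF, where 11.6% of all genes did. Nfatc1 (limma adjusted p = 0.0523) passed with either scaling, without the mean-variance trend and without LoF library 3, and Camk2d (limma adjusted p = 0.0632) with median ratio scaling and with the filter of 5 FPKM. Of 10 listed targets of the β-catenin branch, 6 were tested, and Axin2, Nkd1 and Znrf3 were higher in GoF than in LoF (5.97% of all genes were). Against WT, Axin2 and Nkd1 were higher in GoF (1.41% of all genes were) and Znrf3 did not pass (limma adjusted p = 0.214). The calls of Axin2 and Nkd1 against WT ended in 10 of 14 and 4 of 15 alternatives. Nkd1 was at 10.1 and 10.9 FPKM in GoF, 0 to 0.869 in LoF, and 0 in both WT libraries (log2 fold change in GoF against LoF 3.22, limma adjusted p = 0.0014). Znrf3 was at 8.62 and 8.59 FPKM in GoF, 1.16 to 2.92 in LoF, and 2.53 and 2.40 in WT (limma adjusted p = 0.0471). Nkd2, Tcf7 and Lef1 did not pass in GoF against LoF (limma adjusted p = 0.103, 0.069 and 0.209). Tcf7 averaged 10.1 FPKM in GoF and 13.1 in WT, and lay below every GoF and WT library in LoF, at 2.25 to 3.92. It did not pass in LoF against WT either (log2 fold change -1.88, limma adjusted p = 0.0971). Axin2 and Nkd1 passed the filter only through their GoF values, so they could enter the test only by being high there. The Znrf3 call ended on leaving out any 1 library other than LoF library 3 (limma adjusted p = 0.0576 to 0.3).

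**Figure D4:**
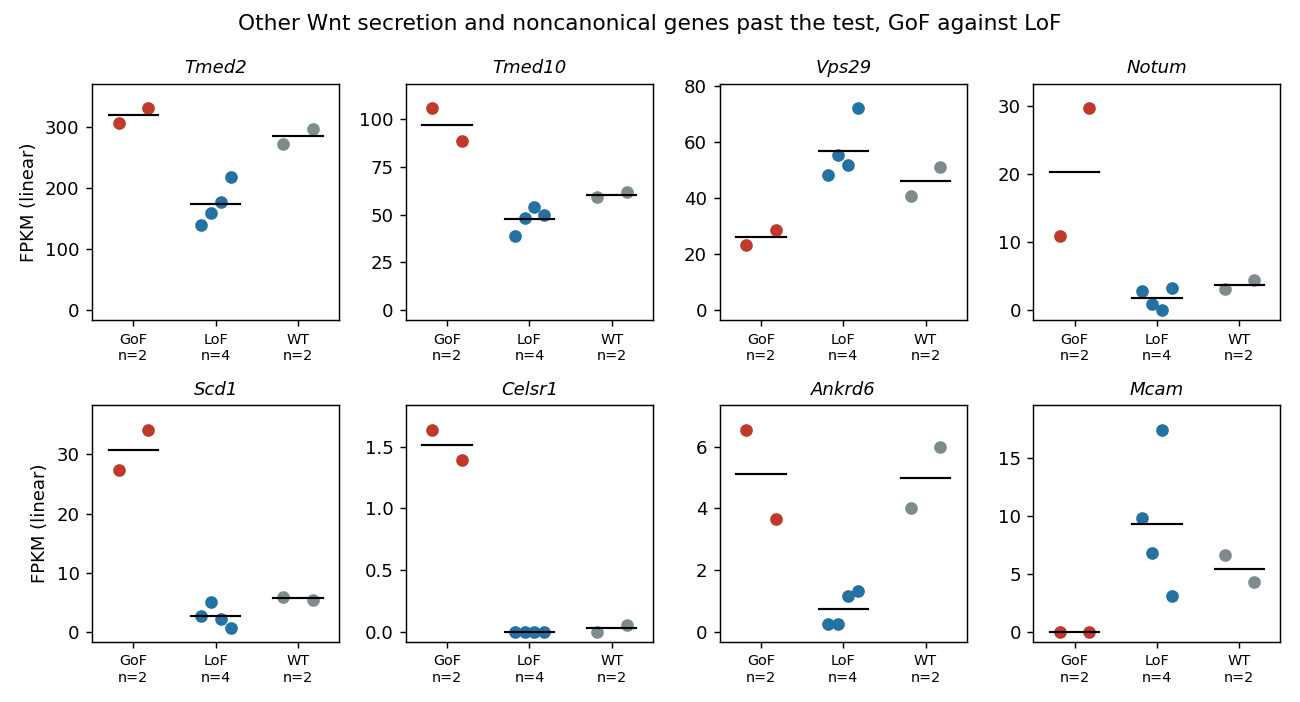
FPKM on a linear axis in each library for the 8 other Wnt secretion and noncanonical genes past the test in GoF against LoF, with GoF on the left, LoF in the middle and WT on the right. Points are libraries and short lines are group means. Scd1 and Notum are highest in GoF, Mcam is at 0 in both GoF libraries, and Ankrd6 and Tmed2 are lowest in LoF.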

How the data were processed

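RNA from pools of 70 hand-picked labelled cells was amplified by Smart-seq2, per the labels' protocols. The authors deposited FPKM per gene and library. Per the submitters' processing notes, which state neither roles nor order, the tools included HISAT2, SAMtools 0.1.18, Cufflinks and HTSeq on mm10. The annotation release is not given in the sources used here. A few abundant genes can lower all other FPKM values of a library. Smart-seq2 does not mark strand. Wnt5a and Wnt11 share exon bases with the opposite-strand genes Gm2670 and Gm8398 in GENCODE M21, both at 0 in every library.

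Of 48555 lines, repeats of 49 gene IDs, with identical values, were dropped. FPKM summed to 293194 to 382101 per library, and depth is unknown, so no counting interval was made. Values were tested unscaled as log2(FPKM + 1), which understates changes of low genes, by limma 3.58.1 (R 4.3.3; 1 mean per group, mean-variance trend, 2-sided, total degrees of freedom 10.1). Intervals are at 95%. The code was tested on simulated data.

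Genes, lists, tests and alternatives were chosen with earlier results of these data known. Named genes were the 10 genes, ligands above 0, called genes of the other Wnt lists, Axin2 and Ctnnb1, and the 3 nearest patterns of each called gene, without predicted genes. Nkd1, Znrf3, Nkd2, Tcf7, Lef1, Col10a1, Scd2, Vps35, Vps26a, Vps26b, Tmed4, Tmed5, Nfatc1, Camk2d, Prickle1 and the marker genes were added after their values were seen. Mtmr8 and Trabd2a of the lists matched no symbol. The 18 alternatives were 2 filters, another pseudocount (0.1), 2 scalings, only the groups compared, no trend, the replicate number, sex, no libraries with Xist, and leaving out each library.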

Additional observations from a re-analysis of the deposited data

Results flagged for a closer look

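Among the 4 LoF libraries, Dixon's test set 1 library apart for Wls and Ror2, of the 7 genes with all 4 values above 0. It is meant to do so in about 1 in 20 groups by chance, and did so in 6.97% of all tested genes with 4 LoF values above 0. LoF library 4 had the highest Wls, at 186 FPKM against 133 to 138 in the other LoF libraries (gap over range 0.907). LoF library 3 had the highest Ror2, at 3.54 FPKM against 0.778 to 1.14 (gap over range 0.868). LoF library 1 was also set apart for Wnt16, at 0.357 FPKM with the other 7 libraries at 0, where the 3 LoF values at 0 fix the ratio and the test says nothing.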

How the results depend on the processing

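No call was added by any alternative among the 27 fold changes of the 9 tested genes, and 405 of 451 alternative values kept direction and call, 30 lost the call and 16, all of uncalled values, changed sign. The 2 genes called in GoF against WT became 1 with a pseudocount of 0.1, without a filter and without the trend, 0 with the replicate block and with sex as a covariate, and 0 to 2 leaving out each library. The 4 called in GoF against LoF became 1 with the replicate block, 2 with sex as a covariate, 0 without libraries that hold Xist, and 1 to 4 leaving out each library. LoF against WT stayed at 0. For the other Wnt lists, the 8 called in GoF against LoF became 3 with only the groups compared, with the replicate block, with sex as a covariate and without libraries that hold Xist, and 1 to 9 leaving out each library. They became 11 with median ratio scaling, which added Camk2d, Nfatc1 and Prickle1, and 10 with quantile normalization, which added Nfatc1 and Prickle1. The 0 in GoF against WT became 1 (Mcam) with a pseudocount of 0.1, 1 (Celsr1) without a filter, 2 (Mcam and Scd1) with only the groups compared, and 0 to 1 leaving out each library. Whether the numbers in the labels pair libraries is not settled. Correlations of same-numbered deviations from group means were -0.00687 to 0.0303. With 2 libraries in GoF and in WT, deviations within a group are equal and opposite, so these correlations cannot exclude a shared litter or batch.

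Signs changed as follows, with the cause not tested. In LoF against WT, Wnt11 was -0.70 with a pseudocount of 0.1, -0.25 with sex, and -0.34 to 0.19 leaving out each library, with 0.00, -0.34 and -0.06 without LoF library 1 or 2 or WT library 2. Wls was -0.05 with quantile normalization, -0.02 with the replicate block and -0.03 without LoF library 4 (-0.03 to 0.13 leaving out each library). Ror2 was -0.08 with the block, -0.09 with sex and -0.04 without LoF library 3 (-0.04 to 0.43). Ryk was -0.08 with the block, -0.15 with sex, and -0.09 without LoF library 3 or WT library 2 (-0.09 to 0.29). Znrf3 was 0.07 without LoF library 1 (-0.21 to 0.07). In GoF against WT, Wnt10b was -0.20 without WT library 1 (-0.20 to 0.81), Tmed2 was -0.15 with quantile normalization, and Ankrd6 was 0.00 with a pseudocount of 0.1 and -0.35 and -0.24 without GoF library 1 or WT library 1 (-0.35 to 0.35). Quantile normalization moved the median of all genes in GoF against LoF to -0.03. All genes called in GoF against WT, 298 in the limma fit, numbered 15 with the replicate block, 11 with sex and 48 to 337 leaving out each library. In GoF against LoF the 1501 became 727, 974 and 414 to 1400, and 690 without libraries that hold Xist, and in LoF against WT the 159 became 1, 14 and 3 to 135, with 83 at a pseudocount of 0.1, 53 without a filter and 54 without the trend. GoF against WT without libraries that hold Xist could not be run, since both WT libraries hold it. With 2 libraries in GoF and in WT, and depth unknown, values under about 1 FPKM are poorly resolved.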
